A study of Mus musculus with 12 samples.

Results

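The subunits of the IL-12 family of cytokines were followed in M1-activated bone marrow-derived macrophages (BM-Mɸs). The set was fixed by gene symbol as Il12b, Il12a, Il23a, Il27 and Ebi3, which are 5 of the 22243 genes in the table of transcript abundances. RNA sequencing covered 12 libraries, 6 from LysMCre/ErbB4-floxed mice (ErbB4myeKO) and 6 from ErbB4-floxed littermates without the Cre (ErbB4FF), with 1 library of each genotype in each of 6 litters. All mice had the C57Bl/6 background, and both groups carried the floxed allele. The LysM promoter drives the Cre in cells of the myeloid lineage, so that the deletion is not limited to macrophages. BM-Mɸs of both groups were grown in CMG14-12 conditioned media, a source of M-CSF, pretreated with IFN-γ at 100 U/mL for 16 h and stimulated with LPS at 100 ng/mL for 6 h, and no unstimulated cultures were analysed here. The comparison asks which subunits differ in mRNA level between M1 cells with and without the myeloid deletion of ErbB4.

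Cytokines of the IL-12 family are heterodimers of an α chain with a helical fold and a β chain that resembles a soluble receptor, and the chains are shared. The p40 chain (Il12b) joins p35 (Il12a) to make IL-12 and p19 (Il23a) to make IL-23, whereas EBI3 (Ebi3) joins p28 (Il27) to make IL-27 and p35 to make IL-35. Macrophages and dendritic cells make IL-12, IL-23 and IL-27 after sensing microbial products, and IFN-γ is known to prime the induction of p40, p35 and p28 by LPS. IL-12 drives IFN-γ production by T and NK cells, IL-23 sustains cells that make IL-17, IL-27 both promotes and restrains T cell responses, and IL-35 is known as a suppressive cytokine.

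In M1 cells, NF-κB, interferon regulatory factors, AP-1 and C/EBP act at the promoters of these genes. RefSeq promoter windows, which run from 250 bases before to 50 bases from the start site, were found for 3 of the 5 subunits in build GRCm38.p6. They are shown because Il12b and Il12a had the highest ratios between the genotypes, while Ebi3 differed little. Windows were searched on both strands for the NF-κB consensus and a narrower form of it, every match of which is also a match of the former, for the interferon-stimulated response element, and for TGANTCA (AP-1), TTGCNNAA (C/EBP) and GAGGAA (ETS). GGGGAATTTT, the letters of the NF-κB half-site of Il12b, was read from the Il12b window and searched for after that sequence had been seen. Matches are in capitals, and all 3 windows lie on the + strand:
Il12b, chr11:44399813-44400112: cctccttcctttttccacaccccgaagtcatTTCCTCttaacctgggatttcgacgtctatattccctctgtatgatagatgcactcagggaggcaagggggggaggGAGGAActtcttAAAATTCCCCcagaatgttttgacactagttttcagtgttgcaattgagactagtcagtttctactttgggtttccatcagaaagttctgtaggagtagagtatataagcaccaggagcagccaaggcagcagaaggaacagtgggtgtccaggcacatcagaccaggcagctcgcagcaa
Il12a, second start, chr3:68691174-68691473: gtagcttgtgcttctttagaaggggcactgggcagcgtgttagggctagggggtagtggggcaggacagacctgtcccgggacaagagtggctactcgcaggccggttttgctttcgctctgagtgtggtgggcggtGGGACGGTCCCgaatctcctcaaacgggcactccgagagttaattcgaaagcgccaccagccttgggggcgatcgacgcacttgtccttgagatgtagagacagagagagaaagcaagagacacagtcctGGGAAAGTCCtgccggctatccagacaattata
Ebi3, chr17:55952373-55952672: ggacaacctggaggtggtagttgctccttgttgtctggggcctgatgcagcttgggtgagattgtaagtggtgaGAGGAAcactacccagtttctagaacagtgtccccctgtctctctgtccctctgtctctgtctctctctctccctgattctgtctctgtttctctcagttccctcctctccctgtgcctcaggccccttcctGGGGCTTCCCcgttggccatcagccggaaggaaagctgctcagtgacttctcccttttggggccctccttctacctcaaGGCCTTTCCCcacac

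With the start site as base 0, the Il12b window held GGGGAATTTT on the - strand at bases -131 to -122 and GAGGAA at -143 to -138 on the + strand and at -219 to -214 on the - strand. Among the 32851 promoter windows of the table, 0.0700% held GGGGAATTTT and 28.3% held GAGGAA. No match to the NF-κB consensus lay in the Il12b window. The window of the second Il12a start had such matches at -113 to -104 on the + strand, at -112 to -103 on the - strand (the same bases but for 1 at each end) and at 17 to 26 on the + strand. Ebi3 had the NF-κB consensus on the - strand at -44 to -35 and at 35 to 44, and GAGGAA at -176 to -171 on the + strand. The NF-κB consensus was in 20.7% of all windows, so a match to it is common. The window of the first Il12a start (chr3:68690394-68690693) had no match to any of these strings. The narrower NF-κB form, the interferon-stimulated response element, TGANTCA and TTGCNNAA, which were in 0.411%, 3.44%, 7.81% and 10.8% of all windows, were not matched in any of the 4 windows of the subunits. The same was true of TATAAA (13.6% of all windows), which was also chosen after the sequences had been seen. A match describes letters and is not a measured binding site.

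**Figure D1:**
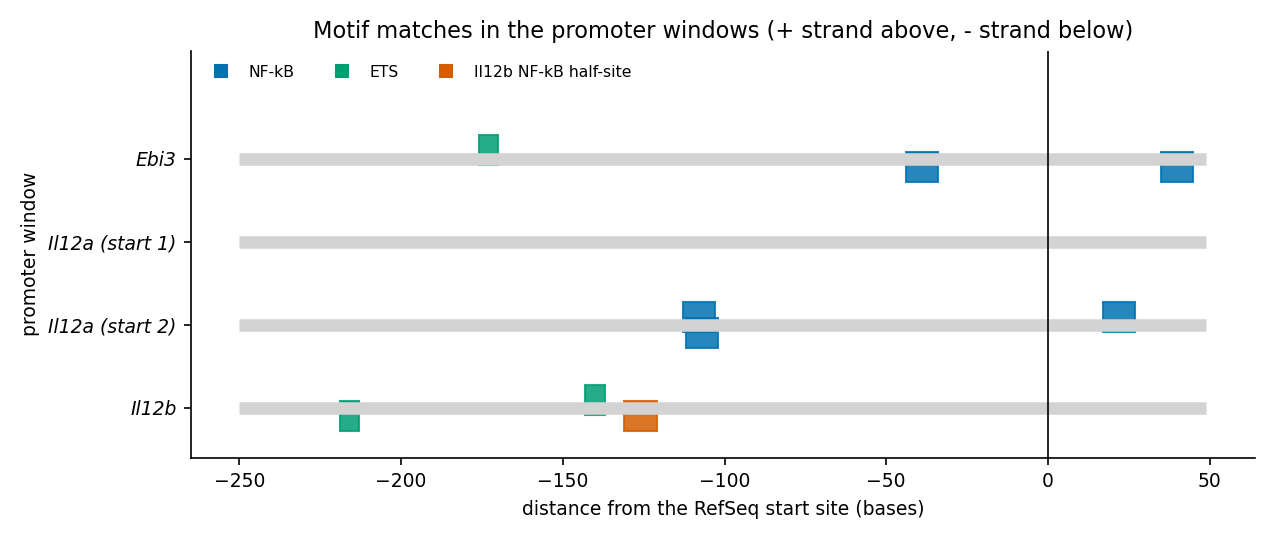
Matches to the searched strings in the 4 RefSeq promoter windows of the subunits, by distance in bases from the start site (x axis), with + strand matches above and - strand matches below each grey window. The Il12b window holds 1 match to the half-site and none to the NF-κB consensus, whereas Ebi3 and the second Il12a start hold 2 and 3 matches to that consensus.

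Values were deposited as TPM, which are scaled to transcript length so that levels of different genes can be compared within a library, for principal isoforms, and those of a gene were summed. The log2 ratio of a litter is log2(TPM + 0.5) in the library labelled ErbB4myeKO minus that in the library labelled ErbB4FF. It understates the difference of low genes. Ratios were fitted with limma over the 8780 genes that averaged 1 TPM or more, with a litter block and Benjamini-Hochberg (BH) adjustment. Single values were given a two-sided exact permutation p from the 64 ways to exchange littermates, of which 0.0312 is the lowest possible. These p-values measure the spread between litters, with 1 culture per mouse as far as the labels tell.

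Before the subunits, the libraries were checked against their labels. Erbb4 itself lay between 0.280 and 0.852 TPM in the libraries labelled ErbB4myeKO and between 0.372 and 0.716 TPM in those labelled ErbB4FF, and was the higher in the former in 4 of 6 litters, so groups are named by their label. Lyz2, the locus that carries the Cre, was lower in the library labelled ErbB4myeKO of each of litters 1 to 5 (log2 ratio -1.20 to -0.81) but had 1.43 in litter 6 (7997 TPM in the library labelled ErbB4myeKO and 2964 TPM in its littermate). Litter 6 thus ran against the others in this gene, and subunit ratios and some other results are also given without it. Without litter 6 the mean log2 ratios were 1.27 for Il12b, 1.90 for Il12a (limma unadjusted p 0.125), 0.44 for Il23a, 0.34 for Il27 and -0.01 for Ebi3. The floxed exon cannot be read apart from the rest of the transcript in TPM. All 7 macrophage markers were above 0 in every library. Of 5 markers of activation by IFN-γ and LPS, Cxcl9, Cxcl10, Gbp2 and Irf1 were above 0 in every library, while Nos2 ranged up to 139 TPM and was listed at 0 in 3 libraries. The summed TPM of 7 lymphocyte markers was at most 0.489. That of 4 markers of activation by IL-4 was 3.04 to 48.2 in the libraries labelled ErbB4myeKO and 4.48 to 22.7 in those labelled ErbB4FF, and that of 10 neutrophil markers was 39.7 to 371 and 40.1 to 185, each higher in the former in 3 of 6 litters. Principal isoforms held 60.4% to 71.4% of all TPM in the libraries labelled ErbB4myeKO and 59.0% to 74.7% in those labelled ErbB4FF, with litter 5 highest in both. The study's methods give 1 approximate depth for all samples, and the depth reached in each library is not in the files. In bulk RNA, fewer cells that make a transcript and less RNA per cell cannot be told apart.

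In these cells the mRNAs of p28, p40 and EBI3 were abundant, whereas the transcripts of p35 and p19 in the table were scarce and were listed at or near 0 in several libraries. Il12b and Il12a were higher in the libraries labelled ErbB4myeKO in 6 and 5 of the 6 litters, Il27 and Ebi3 were higher in 3 litters each, and Il23a was higher in 4. None of the 5 passed an adjusted p of 0.05 (limma, BH), as was the case for all 8780 genes (0% called, smallest adjusted p 0.603). At an unadjusted p under 0.05 there were 2 of the 5, Il12b and Il12a, against 8.21% of all genes tested. A covariate from Y-linked genes added to the litter block gave an unadjusted p of 0.0517 for Il12b and 0.0893 for Il12a (limma). Neither then remained under 0.05. Littermates were alike in whether the Y-linked genes Ddx3y and Eif2s3y were above 0, so the litter block already takes up sex. That fit therefore cannot show whether sex matters for either gene. Il12b alone went the same way in 6 of 6 litters, as did 4.82% of all genes, and for each of the 5 subunits the groups overlapped, while they did not overlap for 0.0456% of all genes.

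**Figure D2:**
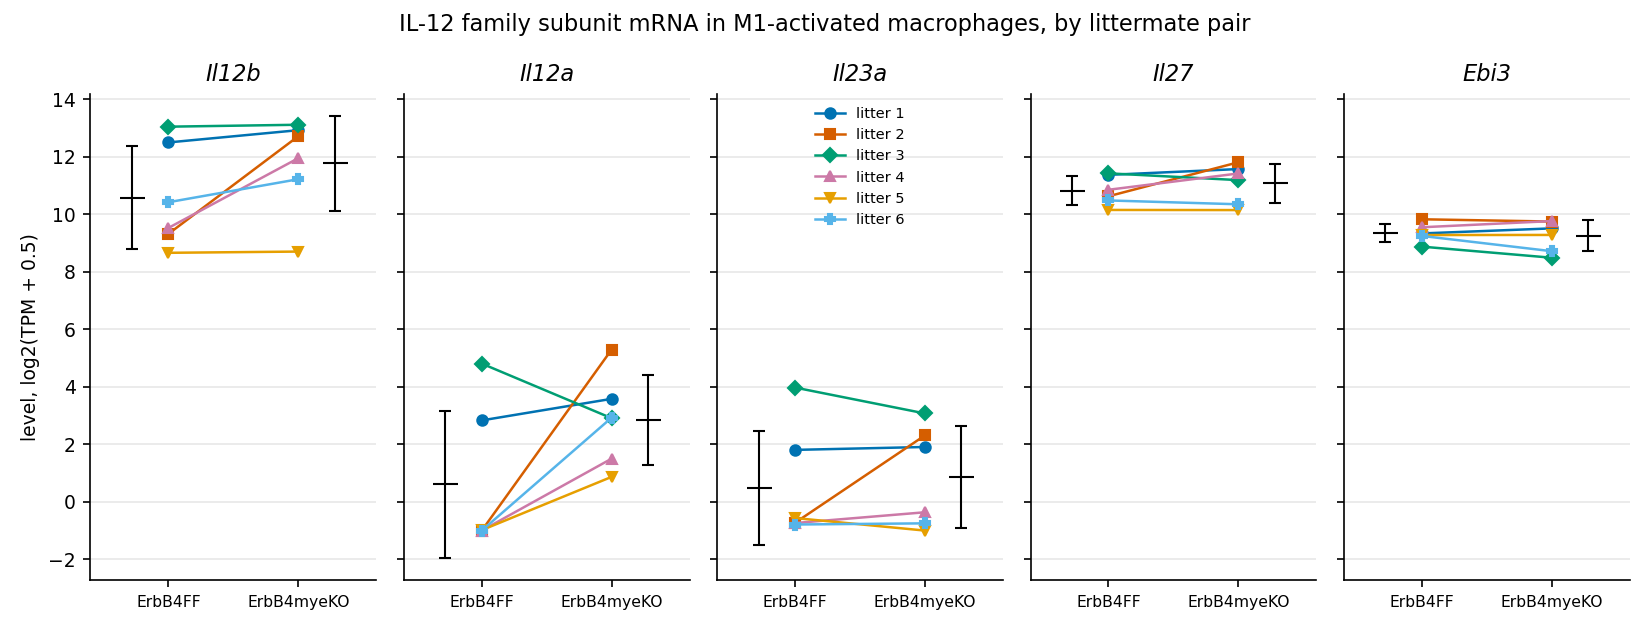
Level of each subunit as log2(TPM + 0.5) (y axis) in the libraries labelled ErbB4FF and ErbB4myeKO, with a line joining the littermates of each of 6 litters and black bars for mean ± SD (n = 6 litters). Il12b is higher at the ErbB4myeKO end of each line, with the steepest lines in litters 2 and 4, Il12a and Il23a reach the floor of the scale in several libraries, and Il27 and Ebi3 have narrow ranges.

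Il12b (ENSMUSG00000004296, chromosome 11 of GRCm38, 44400063 to 44414033 on the + strand) encodes p40, the chain that IL-12 and IL-23 share. In litters 1 to 6 it was at 5805, 639, 8490, 738, 405 and 1373 TPM in the libraries labelled ErbB4FF. The littermates labelled ErbB4myeKO had 7804, 6750, 8894, 3969, 417 and 2392 TPM. Litters 1 and 3 were thus high in both genotypes, litter 5 was low in both, and litters 2 and 4 were low in the library labelled ErbB4FF and high in its littermate. The fold between littermates was 10.6 in litter 2 and 5.38 in litter 4, 1.74 in litter 6 and 1.34 in litter 1, and 1.05 and 1.03 in litters 3 and 5. Over the litters the log2 ratio averaged 1.19 (limma SE 0.47, 95% interval 0.11 to 2.28, unadjusted p 0.0349, BH-adjusted p 0.603), with an SD of 1.39 over the 6 litters that exceeded it. Each of the 6 ratios lay above 0 (exact permutation p = 0.0312, which no outcome could undercut). Without litter 2 the mean was 0.75, and without litter 4 it was 0.95. Without litter 6, whose Lyz2 ran against the other litters, 5 of 5 ratios lay above 0 (exact permutation p = 0.0625, the lowest that 5 litters allow, limma unadjusted p 0.0607).

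The level of Il12b varied widely between mice of 1 genotype. From the lowest to the highest library it spanned 21-fold among those labelled ErbB4FF and 21.3-fold among those labelled ErbB4myeKO. It ranked from place 5 to place 303 of all genes in the former and from 5 to 292 in the latter. Its SD of log2 level in the libraries labelled ErbB4FF was larger than that of 98.7% of the genes tested. Litters 5 and 6 differed from litters 1 to 4 also in the Y-linked genes Ddx3y and Eif2s3y, which were above 0 in both libraries of each of litters 1 to 4 and listed at 0 in the 4 libraries of litters 5 and 6. Mean Il12b was 5386 TPM in litters 1 to 4 and 1147 TPM in litters 5 and 6, and its mean log2 ratio was 1.58 and 0.42. As both libraries of a litter were alike in these genes, the litter block takes up this difference, and litter and sex cannot be told apart in it.

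Dendritic cells also make p40, and 6 of their markers were summed. The sum was higher in the library labelled ErbB4myeKO in 6 of 6 litters, between 8.95 and 33.4 TPM against 4.47 to 25.5 TPM, and in 5 of 5 without litter 6, while no single marker of the list was higher in 6 of 6. Xcr1 (2.56 to 29.0 TPM over the 12 libraries) was more than 50% of the sum in 11 libraries and 48.1% in the library labelled ErbB4FF of litter 2. Xcr1 and Clec9a were each higher in 5 of 6 litters, and in litters 2 and 5 they went opposite ways. Flt3 was at most 0.0789 TPM and Zbtb46 at most 0.394 TPM, each higher in 2 of 6 litters, and Cd209a and Siglech were listed at 0 in all 12 libraries. The 7 macrophage markers had no common direction. Fcgr1, the high-affinity IgG receptor, had a mean log2 ratio of -0.86 and was lower in the library labelled ErbB4myeKO in 6 of 6 litters, and Mertk, a receptor for dead cells, had 0.14 and was higher in 6 of 6. Lyz2 and Itgam had -0.59 and -0.20 and were both higher in litter 6 alone, whereas Adgre1, Csf1r and Cd68 lay between -0.12 and 0.05. Of the 5 markers of activation by IFN-γ and LPS, Cxcl10 had -0.18 and was lower in 6 of 6 litters, and Nos2 had -2.22 and was higher in 1 of 6. The Nos2 ratios ran from -6.77 to 3.89, and both libraries of litter 5 were listed at 0. In litters 1, 2, 3 and 6 the Nos2 ratio rests on a library at 0.220 TPM or less, so its size is uncertain. Cxcl9, Gbp2 and Irf1 had 0.21, -0.04 and -0.05. Without litter 6 the means were -0.99 for Lyz2, -0.29 for Itgam, 0.07 for Mertk and -1.31 for Nos2 (SD 3.93, n = 5 litters). Cxcl9 then had 0.12 and Irf1 -0.01, and Adgre1, Csf1r and Cd68 lay between -0.16 and 0.09. The part of these markers in the Il12b result was not tested.

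Both principal isoforms of Il12b were in the table, and both had the direction of the gene. ENSMUST00000102796 and ENSMUST00000170513 share the whole coding region (1005 bases from 44404037 to 44413233) and differ only in untranslated sequence, with a first exon that ends at 44400118 in the former and at 44400224 in the latter. As 97.2% and 92.9% of their 31-mers (31-base stretches, the unit by which reads are assigned) also occur in another transcript of the gene, the split between them is less certain than their sum. The isoform with the longer first exon held 19.1% to 43.8% of Il12b TPM in the libraries labelled ErbB4FF and 16.0% to 51.9% in those labelled ErbB4myeKO. The lowest share of each group was in litter 5. The log2 ratio averaged 1.15 ± 1.38 for the first isoform (SD, n = 6 litters, higher in 5, exact permutation p = 0.0938) and 1.22 ± 1.48 for the second (SD, n = 6 litters, higher in 5, exact permutation p = 0.0625).

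Il12a (ENSMUSG00000027776, chromosome 3, 68690644 to 68698547 on the + strand) encodes p35, which completes IL-12. It was listed at 0 in the libraries labelled ErbB4FF of litters 2 and 4, was at 0.0055 and 0.000077 TPM in those of litters 5 and 6, and was at 6.63 and 27.5 TPM in those of litters 1 and 3. In the libraries labelled ErbB4myeKO it was above 0 in each litter, at 11.5, 38.9, 7.01, 2.34, 1.33 and 7.12 TPM in litters 1 to 6. Thus 4 of 6 libraries labelled ErbB4FF had next to none of the Il12a transcript in the table and none labelled ErbB4myeKO was that low, but the highest value labelled ErbB4FF exceeded 5 of the 6 labelled ErbB4myeKO and litter 3 went the other way. The log2 ratio averaged 2.24 (limma SE 0.93, 95% interval 0.07 to 4.41, unadjusted p 0.0449, BH-adjusted p 0.603), with an SD of 2.79 over 6 litters, higher in 5 of 6 (exact permutation p = 0.125). The size rests on the pseudocount, with 3.66 at 0.1 TPM and 1.69 at 1 TPM in place of 0.5, and on litter 2, without which it was 1.43.

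Scaled by the authors' mean of normalized counts, 1 TPM of Il12a stood for about 7.57 estimated reads. The values of the libraries labelled ErbB4myeKO then stand for about 10.1 to 294 reads and the 2 higher values of those labelled ErbB4FF for about 50.2 and 209 reads. These are approximate, as 1 scale was used for all libraries. Of the 2 coding transcripts of Il12a, only ENSMUST00000107816, which begins at the second start, is in the table, and 94.7% of its 31-mers occur in other transcripts of the gene. ENSMUST00000029345, which begins 780 bases upstream at 68690644, was not used here. A value of 0 for the gene therefore means 0 for that transcript, and as 92.4% of the 31-mers of ENSMUST00000029345 occur in other transcripts of the gene, how reads were split between the 2 is uncertain.

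Il23a (ENSMUSG00000025383, chromosome 10, 128296139 to 128298752 on the - strand) encodes p19, which completes IL-23. In litters 1 to 6 it was at 3.0, 0.104, 15.2, 0.0998, 0.177 and 0.0789 TPM in the libraries labelled ErbB4FF and at 3.25, 4.47, 7.93, 0.278, 0 and 0.0955 TPM in those labelled ErbB4myeKO. Litters 1 and 3 were high in both genotypes, litters 4 to 6 were at 0.278 TPM or less in both, and in litter 2 the library labelled ErbB4myeKO alone was high. The mean log2 ratio was 0.37 (limma SE 0.49, 95% interval -0.76 to 1.5, BH-adjusted p 0.824) with an SD of 1.38 over 6 litters and was above 0 in 4 of 6 (exact permutation p = 0.719). Litter 2 had 3.04, and without it the mean turned to -0.16. With about 8.12 estimated reads per TPM, the 7 libraries at or under 0.278 TPM stood for about 2.26 reads or fewer, so differences among them were not detectable at this depth.

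Il27 (ENSMUSG00000044701, chromosome 7, 126589010 to 126594941 on the - strand) encodes p28, the α chain of IL-27. Its values in litters 1 to 6 were 2655, 1585, 2756, 1854, 1140 and 1433 TPM in the libraries labelled ErbB4FF and 3055, 3599, 2340, 2749, 1136 and 1306 TPM in those labelled ErbB4myeKO. The groups overlapped over most of their range, and litters 5 and 6 were the lowest of both. Il27 spanned 2.42-fold among the libraries labelled ErbB4FF and 3.17-fold among those labelled ErbB4myeKO, a narrower span than that of Il12b. The mean log2 ratio of 0.26 (limma SE 0.18, 95% interval -0.16 to 0.69, BH-adjusted p 0.669) was smaller than its SD of 0.53 over 6 litters and was above 0 in 3 of 6 (exact permutation p = 0.375). The highest ratios were those of litters 2 and 4, at 1.18 and 0.57, which were also the highest for Il12b, and without litter 2 the mean was 0.08.

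Ebi3 (ENSMUSG00000003206, chromosome 17, 55952640 to 55957022 on the + strand) encodes the β chain of IL-27 and IL-35. The libraries labelled ErbB4FF of litters 1 to 6 had 646, 910, 470, 750, 622 and 609 TPM, and those labelled ErbB4myeKO had 730, 861, 360, 871, 623 and 421 TPM. Litter 3 was the lowest in both genotypes, where Il12b and Il23a were at their highest. The mean log2 ratio was -0.10 (limma SE 0.11, 95% interval -0.36 to 0.16, BH-adjusted p 0.783), with an SD of 0.30 over 6 litters and 3 litters on each side (exact permutation p = 0.50). The interval leaves no room for a log2 difference as large as the mean of Il12b. The SD of log2 level in the libraries labelled ErbB4FF was larger than that of 30.5% of the genes tested for Ebi3 and of 57.2% for Il27. Both genes have a single transcript in the annotation, with no 31-mer shared with another transcript.

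**Figure D3:**
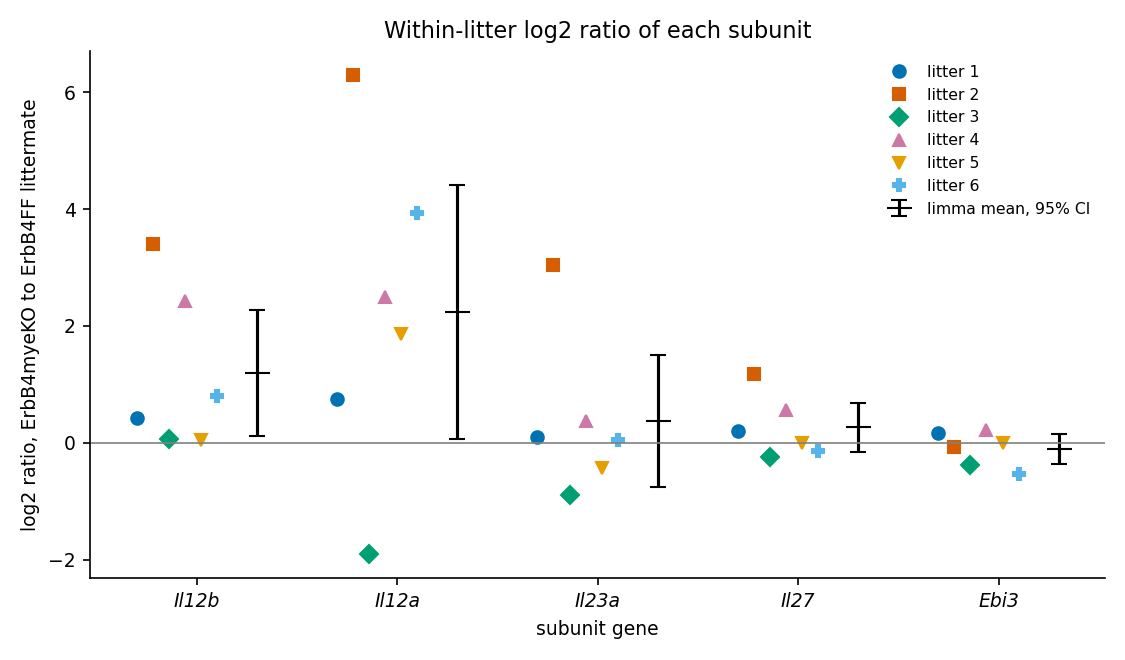
Log2 ratio from the library labelled ErbB4FF to its littermate labelled ErbB4myeKO (y axis) for each subunit, with 1 point per litter and the limma mean with its 95% interval (n = 6 litters). The mean goes from 2.24 (Il12a) and 1.19 (Il12b) to 0.37 (Il23a), 0.26 (Il27) and -0.10 (Ebi3), and litter 2 is the highest point for the first 4 of these genes.

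How far the genotypes lay apart was compared between subunits within litters, over all 10 pairs of subunits. The log2 ratio of Il12b exceeded that of Il23a by 0.82 ± 0.65, that of Il27 by 0.93 ± 0.91 and that of Ebi3 by 1.29 ± 1.34 (SD, n = 6 litters), each in 6 of 6 litters. Each of these 3 pairs had an exact permutation p of 0.0312, the smallest possible, and 0.104 after BH adjustment over the 10 pairs, so none passed. At this floor a pair can pass only if most of the 10 reach it, so these 3 could not have passed alone. Without litter 6 the differences from Il23a, Il27 and Ebi3 were 0.84, 0.93 and 1.29 (exact permutation p = 0.0625 each, the lowest that 5 litters allow, adjusted 0.208), and without litter 2 that from Ebi3 was 0.86. The difference from Il23a rests on the pseudocount, as with 0.1 TPM in place of 0.5 it was 0.65 with an exact permutation p of 0.188. In litter 2 the TPM of Il23a differed 42.9-fold between littermates against 10.6-fold for Il12b, from an Il23a level of 0.104 TPM. Il12b was below Il12a by 1.05 ± 1.94 (SD, n = 6 litters), with Il12a the higher ratio in 5 litters (exact permutation p = 0.219, adjusted 0.273). The mean of this difference was -2.47 and -0.50 with pseudocounts of 0.1 and 1 TPM, -0.67 without litter 2, -1.65 without litter 3 and -0.63 without litter 6. The partner chains of IL-27 differed by 0.36 ± 0.47 (Il27 above Ebi3, SD, n = 6 litters) in 5 of 6 litters (exact permutation p = 0.0625, adjusted 0.134), and by 0.18 without litter 2. The other 5 pairs had adjusted p-values between 0.134 and 0.938.

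Put as ratios of TPM within a library, p40 mRNA was between 0.355 and 3.08 times that of p28 in the libraries labelled ErbB4FF (median 0.681) and between 0.367 and 3.80 times in those labelled ErbB4myeKO (median 1.85). In litters 2, 4 and 6 the ratio went from 0.403 to 1.88, from 0.398 to 1.44 and from 0.958 to 1.83, so that Il12b exceeded Il27 in the library labelled ErbB4myeKO. Litter 5 stayed at 0.355 and 0.367. Il27 exceeded its partner Ebi3 in all 12 libraries, by 1.74 to 5.86 times in those labelled ErbB4FF (median 2.41) and by 1.82 to 6.51 times in those labelled ErbB4myeKO (median 3.67). Il12b exceeded Il12a, its partner in IL-12, by 174 to 1700 times in the libraries labelled ErbB4myeKO, and by 876 and 308 times in the 2 labelled ErbB4FF in which Il12a was above 0.01 TPM. The Il12a value in these ratios covers 1 of its 2 coding transcripts, and protein was not analysed here.

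**Figure D4:**
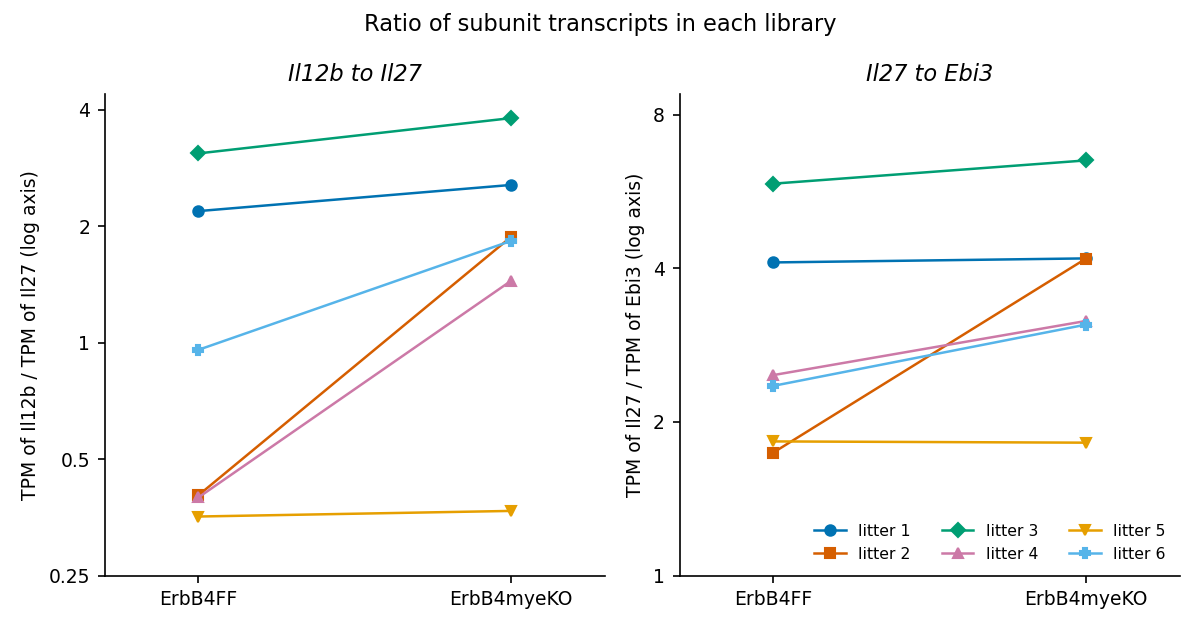
Ratio of the TPM of Il12b to Il27 (left) and of Il27 to Ebi3 (right) in each library on log axes, with a line joining littermates and a colour per litter (6 litters). Il12b to Il27 goes from 0.403 to 1.88 in litter 2, from 0.398 to 1.44 in litter 4 and from 0.958 to 1.83 in litter 6, while litter 5 has 0.355 and 0.367, and Il27 to Ebi3 stays above 1 throughout.

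The order of the mean log2 levels in the libraries labelled ErbB4FF was Il27 (10.82), Il12b (10.58), Ebi3 (9.36), Il12a (0.61) and Il23a (0.49). Of the neighbours in this order, Ebi3 was above Il12a in 6 of 6 libraries (exact permutation p = 0.0312, adjusted 0.125 over 4 pairs), and the other 3 differed by less than their spread over libraries. In those labelled ErbB4myeKO it was Il12b (11.78), Il27 (11.09), Ebi3 (9.25), Il12a (2.85) and Il23a (0.86), with Il27 above Ebi3 and Ebi3 above Il12a in 6 of 6 libraries each (exact permutation p = 0.0312 each, adjusted 0.0625). There Il12a was above Il23a in 5 of 6 libraries, by 1.98 ± 1.31 on the log2 scale (SD, n = 6 libraries, exact permutation p = 0.0625, adjusted 0.0833). Il12b was above Il27 in 5 of 6 libraries labelled ErbB4myeKO, by 0.69 ± 1.15 (SD, n = 6 libraries, exact permutation p = 0.250), whereas Il27 was above Il12b in 4 of 6 labelled ErbB4FF, by 0.24 ± 1.36 (SD, n = 6 libraries, exact permutation p = 0.656).

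Across the 6 litters, ratios of some subunits moved together, tested over the 720 orders of the litters. Of 10 pairs, the ratios of Il12b and Il23a correlated with r = 0.890 (exact permutation p = 0.00556, adjusted 0.0347) and rho = 0.886 (exact permutation p = 0.0333, adjusted 0.167), and r was 0.791 without litters 2 and 4. Il23a and Il27 gave r = 0.937 (exact permutation p = 0.00694, adjusted 0.0347) and rho = 0.943 (exact permutation p = 0.0167, adjusted 0.167), with 0.701 without litters 2 and 3. As the litters left in both cases include ones with Il23a at about 2.26 estimated reads or fewer in both libraries, these last values say nothing of how stable the relations are. Without litter 6 the 3 pairs named here had r between 0.889 and 0.967 over 5 litters. Il12b and Il27 gave r = 0.936 (exact permutation p = 0.0139, adjusted 0.0463) and rho = 0.714 (exact permutation p = 0.136, adjusted 0.272), but 0.103 without litters 2 and 4, and thus rested on these 2 litters. The remaining 7 pairs had adjusted p-values of 0.0903 or more for r, and those of Ebi3 with Il12b, Il12a and Il23a had r between 0.0414 and 0.284.

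Over the 12 libraries, the levels of Il12b followed those of Il12a (r = 0.853), Il23a (0.842) and Il27 (0.858) but not those of Ebi3 (-0.265), as Pearson's r of log2(TPM + 0.5). The genes most like Il12b by this measure were Map3k5 (0.981), Inhba (0.973), Lztfl1 (0.968), Hivep3 (0.967) and Ptgs2 (0.965), of which Inhba encodes the βA chain of activin and Ptgs2 the inducible cyclooxygenase. Ptgs2 had a mean of 3562 TPM and Inhba of 69 TPM, so the likeness held over a wide range of levels. Those most like Il23a were Maff (0.973), Hacd2 (0.968), Atp2b4 (0.962), Tnf (0.953) and AA467197 (0.950), with Tnf encoding the cytokine TNF. Il12a was followed by Dcbld2 (0.952), Nt5dc3 (0.893), Agpat4 (0.888), Npy (0.885) and Utp20 (0.883), a list that its values at 0 limit. For Il27 the genes were Has1 (0.943), Plat (0.941), Pon2 (0.937), Cpt1a (0.934) and Tnfaip2 (0.932), and for Ebi3 they were Bcl2l13 (0.949), Washc1 (0.917), Yju2 (0.916), P2ry12 (0.898) and Pias1 (0.896). No gene was among the first 5 of 2 subunits. Libraries of 1 litter share their origin, so these values describe the 12 libraries only.

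Of 33 genes that receive, transmit or regulate IL-12 family signals, 27 were tested, 0 passed an adjusted p of 0.05 (limma, BH), and at an unadjusted p under 0.05 there was 1 higher (3.83% of all genes) and 1 lower (4.38% of all genes). Without litter 6 there were 0 higher and 2 lower, Fos and Nfil3, and 0 passed the adjusted p. In that fit 234 of all 8780 genes were higher and 279 were lower at an unadjusted p under 0.05 (limma). The median log2 ratio of the 27 was -0.11, against -0.00068 over all 8780 genes, and 17 of the 27 means lay below 0. Receptor chains were low in these cells, at 10.2 ± 7.16 and 11.8 ± 6.48 TPM for Il12rb1, the chain that binds p40, in the libraries labelled ErbB4myeKO and ErbB4FF (SD, n = 6 each). Il12rb2, the second chain of the IL-12 receptor, had 3.67 ± 2.52 and 5.48 ± 5.53 TPM (SD, n = 6 each). Their mean log2 ratios were -0.25 (limma SE 0.24) and -0.11 (SE 0.27), with Il12rb1 higher in 3 of 6 litters and Il12rb2 in 2 of 6. Without litter 6 the mean of Il12rb2 was -0.32. Il23r was listed at 0 in both libraries of litter 3 and was lower in the library labelled ErbB4myeKO in the other 5 litters, with values of 0.357 to 1.17 TPM against 0.924 to 1.72 TPM. Il23r and Il27ra (at most 0.864 TPM) were below the filter and were not tested. Il6st, which encodes gp130, the partner of the IL-27 receptor chain, was the higher in the library labelled ErbB4myeKO in each litter, by 0.25 ± 0.31 on the log2 scale (SD, n = 6 litters, exact permutation p = 0.0312, limma unadjusted p 0.0894). Litter 6 had the highest of the 6 values at 0.86, and without it the mean was 0.13 (exact permutation p = 0.0625).

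Among 6 signal transducers, Tyk2, a Janus kinase of the IL-12 and IL-23 receptors, was the 1 gene that was higher at an unadjusted p under 0.05. It was listed at 0 in the library labelled ErbB4FF of litter 1 and in that labelled ErbB4myeKO of litter 3, and its highest values, 27.3 and 20.3 TPM, were those of litter 5. The mean log2 ratio was 1.03 (limma SE 0.40, unadjusted p 0.0332, BH-adjusted p 0.603), above 0 in 5 of 6 litters, and 0.73 without litter 6 (unadjusted p 0.0950). Stat3, which acts downstream of IL-23 and IL-27, had -0.15 ± 0.16 (SD, n = 6 litters) and was below 0 in 6 of 6 (exact permutation p = 0.0312, limma unadjusted p 0.0670). Without litter 6 its mean was -0.17. By comparison, 2.51% of all genes were higher and 2.31% were lower in the library labelled ErbB4myeKO in 6 of 6 litters. Stat4, the transducer of IL-12, had 0.16 ± 0.46 (SD, n = 6 litters), and a mean of 0.09 without litter 6.

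The 13 activators, which are NF-κB subunits, interferon regulatory factors and other factors that act on these promoters, had a median log2 ratio of -0.05 and lay between -0.54 and 0.15. Fos, an AP-1 subunit, was the 1 gene lower at an unadjusted p under 0.05. The library labelled ErbB4FF had 8.56, 15.4, 7.06, 14.9, 6.70 and 6.39 TPM in litters 1 to 6, and the littermate had 6.25, 7.60, 4.54, 8.44, 4.30 and 7.09 TPM, lower in 5 of 6 litters. Its mean was -0.54 (limma SE 0.15, unadjusted p 0.00745, BH-adjusted p 0.603), and -0.67 without litter 6, the 1 litter in which it was higher. Rel, Rela and Nfkb1, the NF-κB subunits, had 0.06 ± 0.21, 0.03 ± 0.16 and 0.15 ± 0.27, and Irf1 and Irf8 had -0.05 ± 0.13 and 0.02 ± 0.21 (SD, n = 6 litters each). Without litter 6 the means of Irf1 and Irf8 were -0.01 and 0.09. Of the 5 restrainers, which limit transcription or the life of cytokine mRNA, 4 had means below 0 and the median was -0.18. They included Il10, the anti-inflammatory cytokine that curbs p40 (-0.18 ± 0.33, SD, n = 6 litters), and Nfil3, a repressor of Il12b (-0.31 ± 0.44, SD, n = 6 litters). Without litter 6 the means of Il10 and Nfil3 were -0.26 and -0.44. Of the lymphocyte products that IL-12 and IL-23 induce, Il17a was listed at 0 in all 12 libraries, and Ifng, Tbx21 and Il22 were below the filter.

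**Figure D5:**
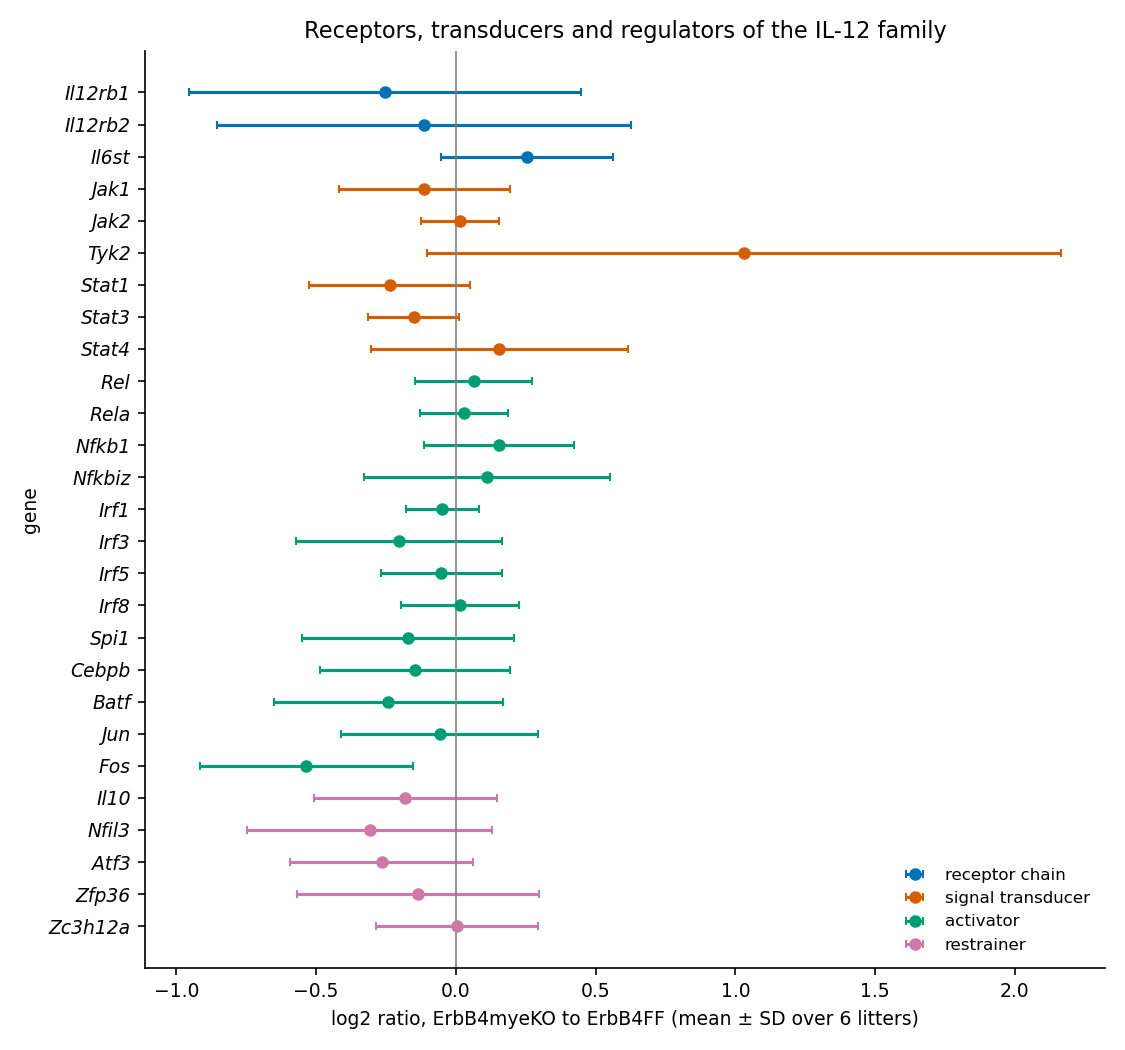
Mean log2 ratio ± SD over 6 litters (x axis), from libraries labelled ErbB4FF to those labelled ErbB4myeKO, for the 27 tested genes that receive, transmit or regulate IL-12 family signals, coloured by role. Tyk2 (1.03) and Fos (-0.54) lie farthest from 0, and the SD of most other genes spans 0.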

How the data were processed

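The 6 ErbB4myeKO and 6 ErbB4FF libraries of M1-activated BM-Mɸs were paired by the number in their titles and the batch letter on their labels, taken as the litters of the study. Per the labels and the study's methods, single-end reads of 75 bp from polyA RNA were pseudoaligned with kallisto. CASAVA, sleuth and mm10 are named in the submitters' processing notes, while versions and the transcriptome release are not given in the sources used here. The authors deposited TPM of APPRIS principal isoforms (28808 transcripts of 22243 genes, with 405 repeated lines dropped here), as part of the TPM over all transcripts. They also deposited a sleuth mean, in natural log, of normalized counts, which served here only for approximate read numbers (5.97 per TPM and kb, the median over 6619 transcripts). P-values, q-values, test statistics and log2 ratios of the authors' own comparison stand in the same table and were not used. Per-sample columns that matched no sample numbered 0.

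Gene sums as log2(TPM + 0.5) were fitted in R 4.3.3 with limma 3.58.1 (lmFit and eBayes, trend on) for the 8780 genes averaging 1 TPM or more, and litter was a block as in the study. The study also modelled sex, which is not on the labels, so a covariate from 4 Y-linked genes was an alternative. As littermates were alike in whether Ddx3y and Eif2s3y were above 0, it adds no difference of sex to the litter block. Paired libraries' deviations from the group means correlated at 0.273 (litter 2) to 0.774 in the 6 litters. Every library correlated best with its own number but for the ErbB4FF library of litter 2. Exact tests used 64 swaps within litters, or 32 without 1 litter, and correlations used the 720 orders of the 6 litters (two-sided). The study's methods give 1 approximate depth for all samples and the files give none per library, so precision rests on the spread between litters. The fit was tested on data simulated with normal noise, in which 200 genes were changed. At an adjusted p under 0.05 (limma, BH) it recovered 69% of log2 changes of 1 and 87% of those of 2. Of its 169 calls, 13 were false.

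Coordinates and 31-mers came from GENCODE M21 (GRCm38) and promoter windows from RefSeq. Subunits, pathway lists and marker lists were chosen with earlier results of these data known. Other genes named are pathway genes with an unadjusted p under 0.05 or 1 direction in 6 of 6 litters, all receptor chains, the 5 genes most like each subunit, markers, Erbb4 and Lyz2. Stat4, Rel, Rela, Nfkb1, Irf1, Irf8, Il10 and Nfil3 were chosen after their values were seen, as were the alternatives of litters 1 to 4 alone and, for genes other than the subunits, of litter 6 left out, and the strings GGGGAATTTT and TATAAA. The remaining alternatives were no block, pseudocounts of 0.1 and 1, no filter, a filter at a mean of 5 TPM, median-ratio size factors, principal isoforms scaled to 1 total, limma without trend, the transcript with the highest mean alone, and each litter left out. Python 3.11.15 was used with pandas 2.3.3, numpy 2.4.6, scipy 1.17.1 and matplotlib 3.10.9.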

Additional observations from a re-analysis of the deposited data

Results flagged for a closer look

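In 25 sets of 6 values (levels by group, ratios over litters and differences of ratios), 8 had a value that lay far from the other 5, with a gap to its neighbour that exceeded Dixon's critical value. Chance gives about 5% of such sets where values are normally distributed. The TPM of Il12a and Il23a are skewed, so this rate does not hold for their levels. Il12a stood apart at 38.9 TPM in the library labelled ErbB4myeKO of litter 2 and at 27.5 TPM in the library labelled ErbB4FF of litter 3. The latter library also had the outlying Il23a value of 15.2 TPM. For the log2 ratio of Il23a, litter 2 stood apart at 3.04. Litter 2 was also the far value for the ratio of Il23a minus that of Il27 (1.86), for Il23a minus Ebi3 (3.12) and for Il27 minus Ebi3 (1.26). For Il12b minus Il23a the far value was that of litter 4, at 2.05. Of these 8 values, 5 thus came from litter 2, and the sets share genes and litters and are not independent.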

How the results depend on the processing

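Of 261 recomputed values, 245 kept their direction and their side of the threshold, or stayed within 1.5 times for a count. With a litter left out, the exact permutation p of a difference between subunits cannot lie under 0.0625, so its side of the threshold was fixed. The log2 ratio of Il12b stayed above 0 in 17 alternatives (0.75 to 1.58, BH-adjusted p 0.50 to 1.00, unadjusted p under 0.05 in 10), as did that of Il12a (1.43 to 3.66, unadjusted p under 0.05 in 7) and Il27 (0.08 to 0.43), and Ebi3 stayed below 0 (-0.16 to -0.01). Il23a, which a mean of at least 5 TPM removes, lay between -0.16 and 0.65 in 16 alternatives. With a litter left out the ranges were 0.75 to 1.42 for Il12b, 1.43 to 3.07 for Il12a, -0.16 (without litter 2) to 0.62 for Il23a, 0.08 to 0.36 for Il27 and -0.16 to -0.01 for Ebi3. Directions also turned for Il23a minus Il27 (-0.0065 with a pseudocount of 1, and -0.24 to 0.26 with a litter left out), for Il23a minus Ebi3 (-0.0593 without litter 2, to 0.67), and for the level differences in libraries labelled ErbB4FF of Il12a minus Il23a (-0.38 with a pseudocount of 0.1, -0.0666 without litter 1, -0.03 without litter 3, to 0.22) and of Il27 minus Il12b (-0.0104 without litter 5, to 0.61 with a litter left out and to 0.91 over all alternatives). Without the block for litter, which drops the pairing of littermates, the 336 genes higher and 385 lower at an unadjusted p under 0.05 became 40 and 35, the p of Il12b was 0.205 and that of Il12a 0.0630, and no gene passed either way. With no filter 533 genes were higher, of 15865 tested in place of 8780. With principal isoforms scaled to 1 total in all libraries 246 were lower and 63.6% of the calls higher, against 46.6%. Leaving out a litter gave 194 to 391 higher and 216 to 486 lower, lowest without litter 2 (194 and 216) and, for lower genes, 226 without litter 4. It gave 0 or 1 genes at an adjusted p under 0.05 (limma), the 1 being Igkv1-88 without litter 3 (-3.27, adjusted p 0.0486), named after its value was seen. The cause of these shifts was not tested. No scaling moved the median of all genes by over 0.1.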
